A study of Mus musculus with 17 samples.

Results

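The CFAP genes, named for cilia and flagella associated proteins, are the mouse genes whose official symbol is Cfap followed by a number. They were taken from the deposited gene table by matching its NCBI Gene IDs to protein-coding symbols, with no expression value used. The rule gave 31 genes of the 24594 in the table, and all 31 reached the level required for testing, 1 RPKM (reads per kilobase of exon, scaled to the size of the library) in at least 3 of the 15 stage libraries. RNA was sequenced from cells of C57BL/6JRj mouse testes, wild type per the labels, that were sorted by flow cytometry. The sorts gave 3 libraries each of 5 stages: spermatocytes in leptotene/zygotene (LZ) and in pachytene/diplotene (PD), then spermatids that were round (RS), early elongating (EES) or late elongating (LES), all from mice labelled 3 months old and stained with Hoechst 33342 and SYTO 16. The other 2 libraries, stained with Hoechst 33342 alone, were round spermatids of juvenile mice at 23 days after birth (RS23) and elongating spermatids with a Prm1-EGFP reporter (PrmES). Their labels also give an age of 3 months and a wild-type genotype, which differs from their titles, and the titles were followed. Whether the libraries of one stage came from different animals is not stated, and the p-values reflect only how these samples vary, which may be technical.

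Motile cilia and the sperm flagellum share an axoneme, a ring of microtubule doublets around a central pair, moved by dynein arms. CFAP is a naming series and not a gene family by descent: its members include proteins inside the doublets, projections of the central pair, proteins at the base of the radial spokes and of the inner dynein arms, and cytoplasmic proteins that assemble dynein arms before they enter the cilium. In the testis the axoneme begins to grow in round spermatids, after meiosis, and loss of several members gives male infertility with malformed flagella.

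Sequences upstream of the members' start sites are shown because the members rose together, and because the RFX factors of ciliary genes bind an X-box and A-MYB, the regulator of pachytene spermatocytes, binds a short MYB motif. RefSeq promoters (GRCm38.p6) were found for 24 of the 31 genes, giving 27 windows that end at the base before the start site. The X-box searched was GTTNCC, then 0 to 3 letters, then NGNAAC, on both strands. It lay in 3 member windows, of Cfap44, Cfap45 and Cfap298, and in 1.57% of all 32851 windows of the same length. Cfap298 had 2 matches, starting 188 and 69 bases before the start site. In GENCODE M21, which gives some starts further upstream, 17 of the 27 windows hold exon bases of a gene with the symbol of the member. The window of Cfap410 also holds 126 exon bases of its own gene, which is named 1810043G02Rik there. The windows of Cfap45, Cfap100 and Cfap298 lie wholly in GENCODE exons of their own gene. Matches are therefore shown with a few flanking bases, 5′ to 3′ on the strand of the gene, and for Cfap69 the part of the window before any exon of that or the de novo annotation. Capitals mark the X-box, GTTGCC on either strand and the MYB letters, which were CAACTG, or TAACTG, or else CAACGG, or lastly TAACGG, on both strands.
Cfap45 (chr1:172521104-172521129, plus strand): ttcttggGTTGCTATGGTAACgcgtc
Cfap298, distal (chr16:90935017-90935044, minus strand): ggttttgGTTGCCCGGGCAACagctact
Cfap298, proximal (chr16:90934897-90934925, minus strand): tttgactGTTGCCCCTGGCAACagccact
Cfap44 (chr16:44394765-44394792, plus strand): gagggacGTTGCTATGGCAACcgcagta
Cfap161 (chr7:83794886-83794915, minus strand): ttgacCAACTGGCAACTGGCAACTGcctgg
Cfap69 (chr5:5664352-5664482, minus strand): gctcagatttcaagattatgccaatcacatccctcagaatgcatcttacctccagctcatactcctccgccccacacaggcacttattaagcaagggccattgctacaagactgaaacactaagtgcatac

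Cfap161 is shown because it had the largest rise in PD of the 31 genes, and its window holds 3 MYB matches, all in the run shown, and 3 matches to GTTGCC on the other strand, of which those in the run overlap the MYB matches. Cfap69 is shown because it had the highest share of its level left in late elongating spermatids, and none of these letters, on either strand, is in its window. The letters GTTGCC, which can lie inside an X-box match, were in windows of 8 members and in 10.4% of all windows. MYB letters were in windows of 6 members, Cfap47, Cfap52, Cfap74, Cfap126, Cfap161 and Cfap298, and in 23.7% of all windows. The cAMP response element TGACGTCA was in the windows of 0 members and in 1.55% of all, and its core TGACG in those of 4 members and in 17.8% of all. The median GC content was 58.4% in the member windows and 52.4% in all windows. An exon of 4930534H18Rik on the opposite strand lies in the Cfap298 window.

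Libraries held 90553570 to 159185303 reads, as recovered from the values, of which 48.4% to 87.7% fell in genes of the table. LZ replicate 3 and EES replicate 2 stood apart from their stages. The summed level of 5 markers of pachytene and later cells (Piwil1, Ccna1, Pou5f2, Ldhal6b and Tdrd6) was 35.1 to 219 RPKM in LZ against 1350 to 1470 in PD and 1150 to 1370 in RS, where Ccna1 and Tdrd6 had their highest stage means. That of 5 round spermatid markers (Acrv1, Spaca1, Hipk4, Spaca7 and Catsper3) was 41.6 to 525 in EES against 216 to 230 in RS. Of the 31 CFAP genes, 29 were highest in replicate 3 of the LZ libraries, at a median of 2.98 times the mean of the other 2. In the EES libraries 29 were highest in replicate 2, at a median of 3.20 times. The matching shares of all tested genes were not counted. Over all 13260 tested genes the median log2 fold change of PD vs LZ was −0.36. It was −0.07, −0.17 and 0.03 without LZ replicate 1, 2 and 3 in turn. The filter was applied again each time, which left 11931, 11941 and 11936 genes, so these medians also differ in the genes they cover. The all-gene median of EES vs RS was −1.42, and it was −1.16, −1.75 and −1.33 without EES replicate 1, 2 and 3 in turn. The 7 Sertoli cell markers, of which 6 reached 1 RPKM in LZ, together had 48.6 to 83.2 RPKM (LZ), 0.973 to 1.14 (PD), 2.22 to 2.80 (RS), 4.91 to 14.6 (EES) and 10.6 to 34.0 (LES), with Sox9 at or under 0.273 in the stage libraries. Of 6 markers of multiciliated cells, Mcidas was at or under 0.0153 RPKM in every library and Gmnc at or under 0.153, whereas Foxj1 reached 71.7 RPKM in RS and Deup1 165 in EES. The part of Sertoli cells and of the 2 libraries in the results was not tested beyond the values given without those libraries.

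As a group the CFAP genes were low in LZ, high in PD and RS and low again in elongating spermatids. Their summed level was 171, 151 and 422 RPKM in the LZ libraries in order of replicate, 1733, 1680 and 1943 in PD, and 2091, 2331 and 2272 in RS. It was 287, 1183 and 383 RPKM in the EES libraries and 360, 338 and 419 in LES. The PD and RS libraries lay above every library of the other stages. In bulk samples fewer cells of a type and less RNA per cell cannot be told apart, and a lower share of the reads is not a lower number of molecules per cell. The highest stage mean was in RS for 17 genes, in PD for 11, in EES for 2 (Cfap100 and Cfap126), in LES for 1 (Cfap69) and in LZ for 0, where 37.9% of all tested genes had theirs. The F test over the 5 stages in limma called 30 of the 31 at an adjusted p under 0.05 with stage means at least 1 apart on the log2 scale, all but Cfap410, and 97.2% of all 13260 tested genes.

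**Figure D1:**
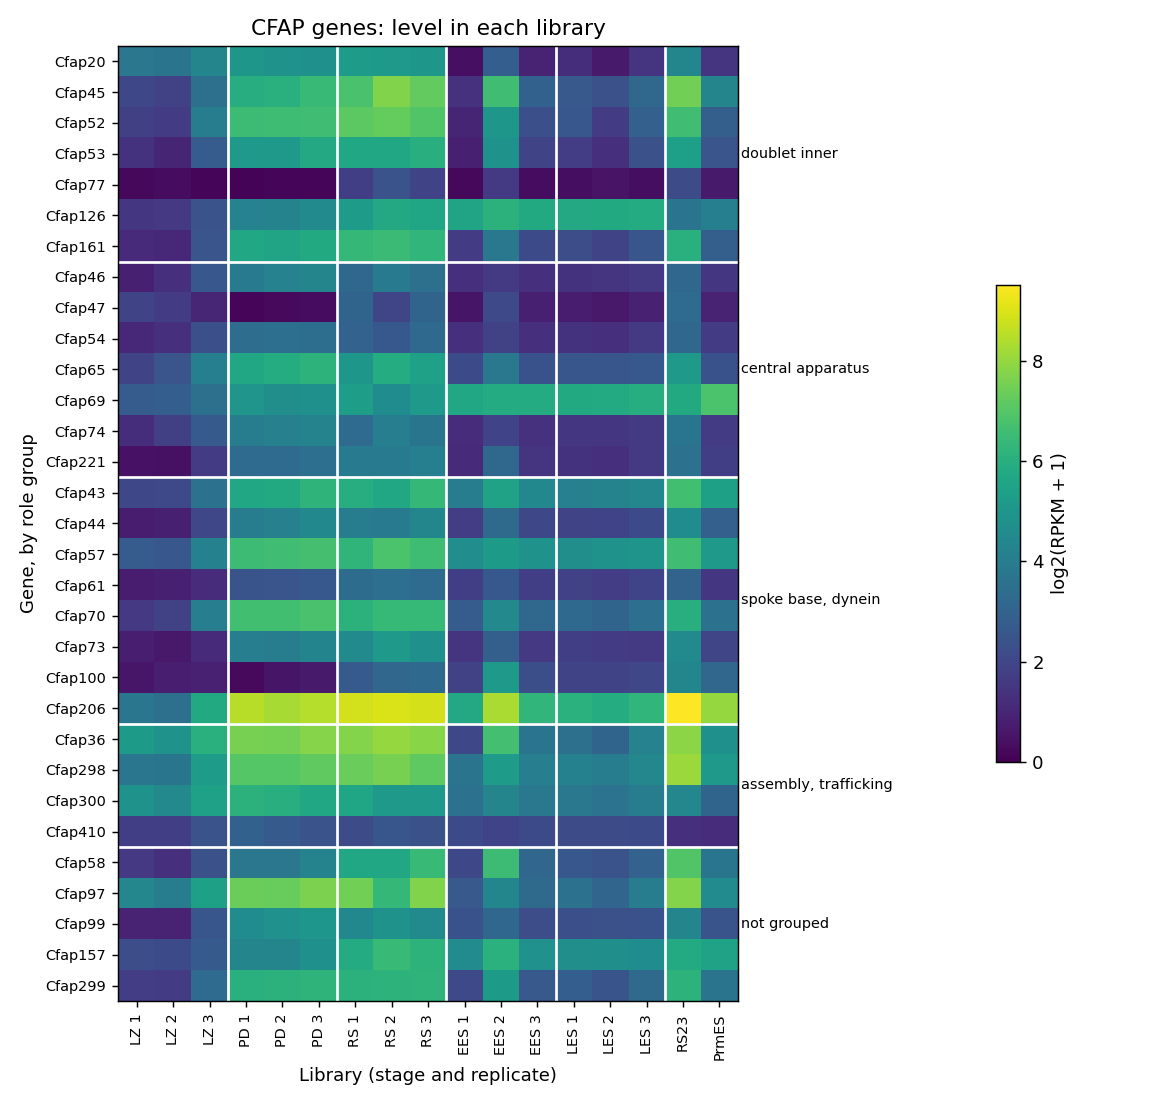
Level of each of the 31 CFAP genes in the 17 libraries as log2(RPKM + 1), with genes in rows by role and libraries in columns; lighter colours are higher. Most rows are light from PD to RS, LZ 3 and EES 2 are lighter than the other libraries of their stages, and Cfap69 and Cfap126 stay light in EES and LES.

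The first rise came between LZ and PD for most members, before the round spermatid stage. Calls were made in limma, at an adjusted p (Benjamini-Hochberg, over the 13260 tested genes) under 0.05 with log2 fold changes of 1 or more in size. Of the 31, 26 rose in PD vs LZ, 1 fell and 4 did not pass, against 25.5% rising and 35.8% falling among all tested genes. The median log2 fold change was 2.94 for the members and −0.36 for all tested genes. The genes that did not pass were Cfap20, Cfap77, Cfap100 and Cfap410, and the fall was of X-linked Cfap47. Without LZ replicate 3 and EES replicate 2 there were 28 rises, with Cfap20 and Cfap410 added, and 2 falls, of Cfap47 and Cfap77. There 3891 of 11852 tested genes rose and 3440 fell, with an all-gene median of 0.04.

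From PD to RS few members passed the test. In RS vs PD 5 rose and 0 fell, against 23.4% and 15.2% of all tested genes, and the median log2 fold change was 0.25 against 0.02 for all genes. At an unadjusted p under 0.05 only Cfap300 was lower, and voom in limma on the recovered reads gave 6 rises, with Cfap58 added, and 0 falls. The rises were of Cfap47, Cfap77 and Cfap100, which had not risen before, and of Cfap126 and Cfap157, which rose in both steps. A first rise in RS was thus seen for 3 members, against 21.5% of all tested genes. A first rise in EES was seen for 0 members and 5.11% of all genes. Cfap20 and Cfap410 had no called rise in any of the 4 steps. With only the PD and RS libraries fitted, RS vs PD had 7 member rises, with Cfap45 and Cfap58 added, where 3361 of 13260 tested genes rose.

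Between RS and EES most members fell. In EES vs RS 26 fell, 0 rose and 5 did not pass, where 54.9% of all tested genes fell and 15.8% rose. The median log2 fold change was −2.48 for the members and −1.42 for all tested genes. Cfap69, Cfap126, Cfap100, Cfap410 and Cfap157 did not pass. At an unadjusted p under 0.05 only Cfap69 was higher, and voom called 0 rises and 26 falls. With each library centred on its own median, which puts the median of all genes at 0.02, 15 members fell and 4 rose (Cfap69, Cfap126, Cfap100 and Cfap410), and the share of rises among all called genes went from 22.3% to 53.7%. Quantile normalization, with an all-gene median of −0.26, gave 19 falls and 1 rise, of Cfap100, and a share of rises of 44.5%. The falls lost were of Cfap43, Cfap44, Cfap47, Cfap54, Cfap61 and Cfap300 under both scalings, of Cfap57, Cfap58, Cfap99, Cfap206 and Cfap221 with centring, and of Cfap77 with quantile normalization. Without LZ replicate 3 and EES replicate 2 there were 28 falls, with Cfap100 and Cfap157 added, and a member median of −3.20. There 7521 of 11852 tested genes fell and 1896 rose, with an all-gene median of −1.94.

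No member passed the test between the elongating stages. In LES vs EES 0 rose and 0 fell, where 0.00754% of all tested genes rose and 0% fell, and at an unadjusted p under 0.05 there were 0 members in either direction; voom also called 0. The member median was −0.30, and it was 0.21 without EES replicate 2. Across the longer steps, LES vs RS had 27 falls and 0 rises, where 55.4% of all genes fell and 17.4% rose. At an unadjusted p under 0.05 only Cfap69 was higher in it, and voom called 0 rises and 27 falls. Median centring, which moved the all-gene median of LES vs RS from −1.43 to 0.12, gave 18 falls and 3 rises (Cfap69, Cfap126 and Cfap410), and quantile normalization, with an all-gene median of −0.28, 22 falls and 2 rises (Cfap69 and Cfap410). The share of rises among all called genes in LES vs RS was 23.9% as deposited, 56.2% with centring and 44.3% with quantile normalization. LES vs PD had 22 falls and 5 rises, of Cfap47, Cfap69, Cfap77, Cfap100 and Cfap126, where 54.3% of all genes fell and 24.5% rose. These 2 comparisons share their LES libraries with each other, and LES vs RS shares the RS libraries with EES vs RS. A rise in PD, no call in RS and a fall in EES was the path of 23 members and of 14.0% of all tested genes.

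**Figure D2:**
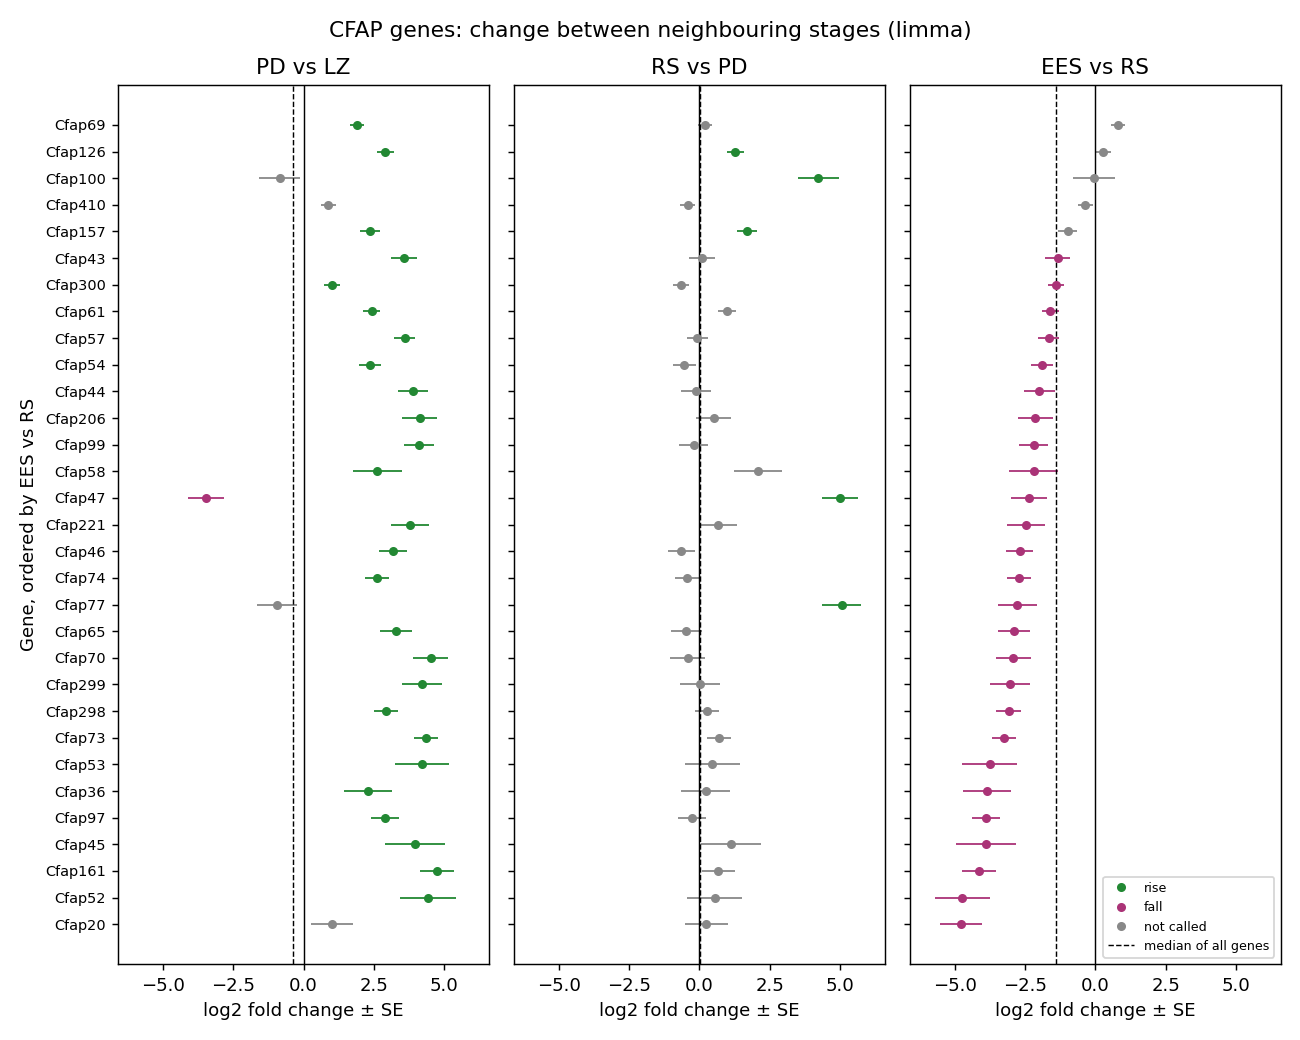
Log2 fold change ± SE (limma) of the 31 CFAP genes in PD vs LZ, RS vs PD and EES vs RS, ordered by the last; green marks rises, purple falls and grey genes not called, and the dashed line is the median of all tested genes. Most points lie right of 0 in PD vs LZ, near 0 in RS vs PD and left of 0 in EES vs RS, with Cfap69 at 0.80 in the last panel.

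The doublet inner proteins bind inside the walls of the axonemal doublets. This group had 7 members, with summed levels (mean ± SD, n = 3 libraries per stage here and below) of 34.5 ± 21.8 RPKM for LZ, 303 ± 29.6 for PD, 512 ± 71.1 for RS, 123 ± 107 for EES and 73.0 ± 9.19 for LES. Cfap161 (chromosome 7, 83775612 to 83798025, GRCm38) was at 1.26, 1.12 and 4.63 RPKM in LZ, 51.7, 46.4 and 54.5 in PD, and 79.0, 89.0 and 75.5 in RS. Its EES libraries had 2.12, 13.0 and 3.40 RPKM and its LES libraries 3.73, 2.84 and 4.79. Every PD and RS library was above every LZ, EES and LES library. It rose by a log2 fold change of 4.75 ± 0.60 in PD vs LZ (limma adjusted p = 1.1e-05) and fell in EES vs RS (−4.15 ± 0.60, limma adjusted p = 3.73e-05).

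Cfap52, a WD-repeat protein of the doublet lumen (chromosome 11, 67924806 to 67965669), had 2.45, 2.18 and 15.04 RPKM in LZ, 91.0, 93.8 and 96.1 in PD, and 138, 151 and 121 in RS. In EES it had 1.00, 32.0 and 4.04 RPKM and its LES libraries 5.02, 2.17 and 6.59. It rose in PD (4.43 ± 0.99, limma adjusted p = 0.00131) and fell in EES vs RS (−4.74 ± 0.99, limma adjusted p = 0.000697), with the groups apart in both. Cfap45 (chromosome 1, 172521130 to 172545870), another lumenal protein, was the most abundant of the group, at 111, 210 and 148 RPKM in RS after 59.8, 64.1 and 85.6 in PD and 3.14, 2.58 and 10.4 in LZ. The EES values were 1.56, 96.9 and 6.80 RPKM, and its LES libraries 5.30, 4.09 and 8.37. EES replicate 2 alone came near the RS libraries, and Cfap45 had the widest error of the 31 genes in EES vs RS (−3.90 ± 1.06, limma adjusted p = 0.00441). Cfap53 rose in PD to 40.1 ± 10.5 RPKM (4.22 ± 0.98) and was at 2.62 ± 1.35 in LES. The PD call was lost in the de novo gene table (1.35 ± 0.79, limma adjusted p = 0.154). There the gene matched to Cfap53 also covers exons of another coding gene.

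Cfap20, which joins the doublet walls at the inner junction (chromosome 8, 95420249 to 95434869), was already present in LZ. It had 12.6, 11.7 and 19.4 RPKM in LZ, 32.0, 28.1 and 26.4 in PD, 36.4, 34.7 and 31.4 in RS, 0.313, 6.11 and 0.949 in EES, and 1.35, 0.608 and 1.74 in LES. The PD libraries were above all LZ libraries, but the change of 1.02 ± 0.76 did not pass (limma adjusted p = 0.249), and its fall in EES vs RS was the largest of the 31 (−4.79 ± 0.76, limma adjusted p = 8.03e-05). Cfap77, at the outer junction (chromosome 2, 28955481 to 29055066), was the lowest of the 31 at its highest stage. It had 0.158, 0.252 and 0.123 RPKM in LZ, 0.0554, 0.106 and 0.0971 in PD (16, 34 and 35 reads), and 2.44, 4.38 and 2.86 in RS. Its EES libraries had 0.164, 2.09 and 0.248 RPKM and its LES libraries 0.264, 0.408 and 0.261. The rise in RS vs PD, 5.07 ± 0.71 (limma adjusted p = 5.61e-05), was the largest of the 31 in that step. Its LES vs PD rise did not pass without PD replicate 1, without PD replicate 3 or without any 1 of the LES replicates, nor with scaling to reads in genes (1.59), a pseudocount of 1 RPKM (0.27), no filter (1.75) or voom (1.84).

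Cfap126, also called Flattop, which lies in the doublet lumen (chromosome 1, 171113912 to 171126956), rose in 2 steps and had no called fall in elongating spermatids. It was at 1.80, 1.99 and 4.35 RPKM in LZ, 17.4, 18.2 and 21.7 in PD, and 37.6, 53.2 and 48.9 in RS. The EES libraries had 45.8, 68.2 and 54.3 RPKM and the LES libraries 53.2, 53.3 and 57.1, so that the ranges of RS, EES and LES overlapped or met. The rises were 2.92 ± 0.30 in PD (limma adjusted p = 1.79e-06) and 1.28 ± 0.30 in RS (limma adjusted p = 0.00308), and EES vs RS gave 0.26 ± 0.30 (limma adjusted p = 0.428). With libraries centred on their medians this last value was 1.71, a rise.

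The central apparatus members form projections of the central microtubule pair, and in LES their summed level was the highest of the 5 groups relative to RS. The sum over its 7 genes was 26.1 ± 15.8 RPKM (LZ), 140 ± 12.9 (PD), 127 ± 10.2 (RS), 72.5 ± 15.5 (EES) and 68.8 ± 4.46 (LES). The LES level was 54.2% of the RS level, against 10.6%, 13.7%, 14.2% and 17% in the other groups, and the difference between groups was not tested. Most of the LES sum was Cfap69, at 56.0 ± 3.24 RPKM. Cfap69, needed for sperm flagella and present in olfactory cilia (chromosome 5, 5579278 to 5664232), had 5.87, 6.09 and 10.5 RPKM in LZ, 30.3, 24.9 and 26.7 in PD, and 38.0, 23.8 and 34.1 in RS. In EES it had 49.8, 57.3 and 57.5 RPKM and its LES libraries 53.3, 55.1 and 59.6. Each elongating library was above each RS library. It rose in PD (1.91 ± 0.25, limma adjusted p = 1.29e-05), and its EES vs RS change of 0.80 ± 0.25 (limma adjusted p = 0.00893) was under the minimum fold change, while LES vs PD passed (1.04 ± 0.25, limma adjusted p = 0.0014), though not without PD replicate 2, without LES replicate 3 or with scaling to reads in genes. The EES vs RS value was 2.25 under median centring and 0.99 under quantile normalization.

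Cfap65 (chromosome 1, 74902071 to 74935626), a central pair protein whose loss gives malformed flagella, had the highest stage mean of this group. It was at 2.86, 4.75 and 16.2 RPKM in LZ, 51.4, 57.8 and 70.2 in PD, 32.1, 57.9 and 42.5 in RS, 3.44, 13.0 and 4.27 in EES, and 4.86, 4.80 and 5.21 in LES. PD and RS overlapped, and every library of both was above every library of the other stages. It rose in PD (3.29 ± 0.57) and fell in EES vs RS (−2.89 ± 0.57, limma adjusted p = 0.000431). Cfap46, Cfap54, Cfap74 and Cfap221, which build the C1d projection, all rose in PD by 2.38 to 3.79 and fell in EES vs RS by log2 fold changes of −1.90 to −2.73. The fall of Cfap54 did not pass with median centring (−0.46) or quantile normalization (−0.50), nor that of Cfap221 with centring (−1.03). Their highest stage means were 16.8, 9.83, 16.4 and 14.8 RPKM in this order, in PD for the first 3 and in RS for Cfap221.

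Cfap47, the X-linked member (X chromosome, 79266558 to 79517351), followed another course. Genes of the X chromosome are silenced in pachytene spermatocytes, as is well known. It had 2.89, 2.14 and 1.04 RPKM in LZ, 0.0939, 0.174 and 0.24 in PD (103, 212 and 329 reads), 7.31, 3.00 and 7.37 in RS, 0.438, 3.32 and 0.782 in EES, and 0.639, 0.576 and 0.851 in LES. LZ replicate 3 was the lowest LZ library here, whereas for 29 of the 31 genes it was the highest. Cfap47 fell in PD vs LZ (−3.48 ± 0.65, limma adjusted p = 0.000333), rose in RS vs PD (5.02 ± 0.65, limma adjusted p = 2.97e-05) and fell in EES vs RS (−2.37 ± 0.65, limma adjusted p = 0.00468), the last not passing with quantile normalization (−0.88) or median centring (−0.92). A fall, a rise and a fall in these 3 steps was the path of 3.03% of all tested genes.

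**Figure D3:**
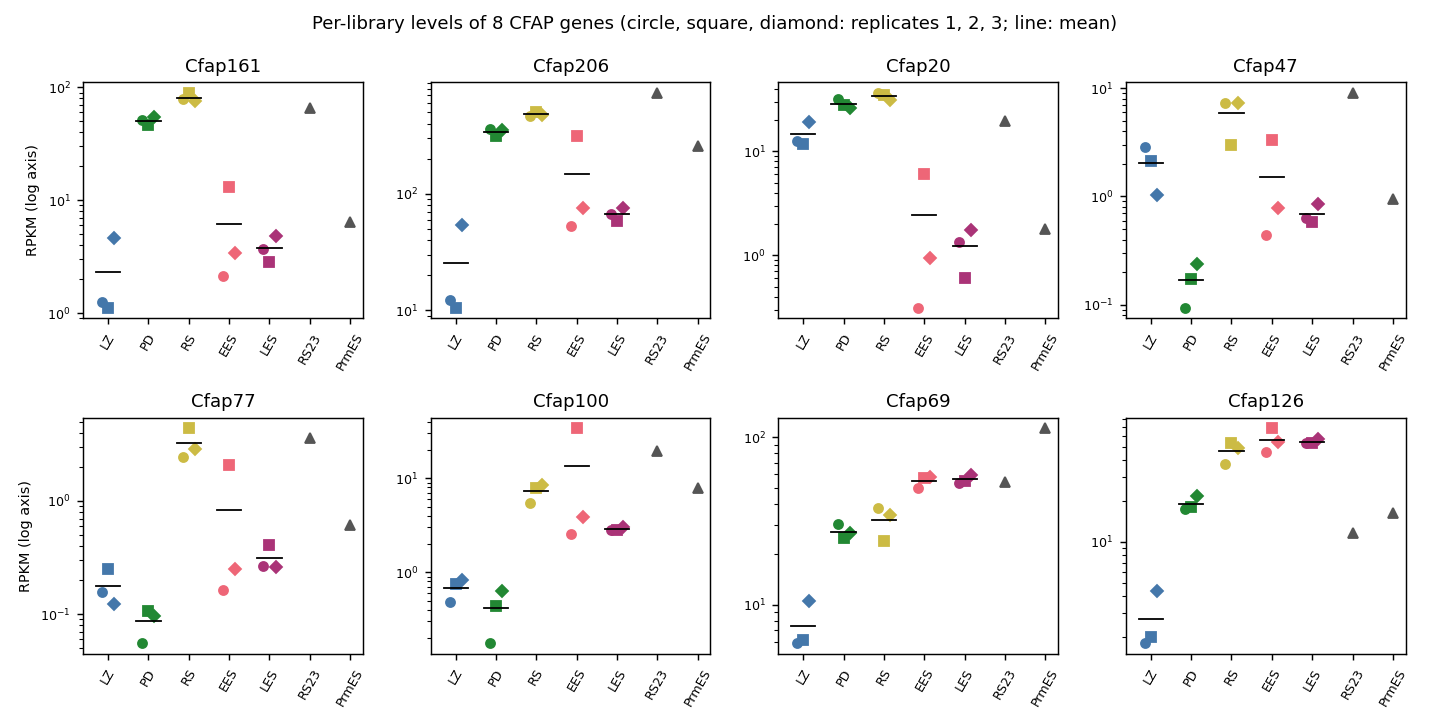
RPKM of 8 CFAP genes on a log axis in each library, by stage and for the single libraries RS23 and PrmES; circles, squares and diamonds are replicates 1, 2 and 3, triangles the single libraries, and lines stage means. Cfap161, Cfap206 and Cfap20 drop from RS to EES replicates 1 and 3, Cfap47, Cfap77 and Cfap100 are low in PD, and Cfap69 and Cfap126 stay near or above their RS level in EES and LES.

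Proteins of the spoke base and of the dynein arm region hold or regulate the motors, and this group of 8 had the highest summed level of the 5 groups from PD on. That sum was 51.7 ± 46.1 RPKM for LZ, 638 ± 42.9 for PD, 774 ± 49.2 for RS, 240 ± 199 for EES and 132 ± 12.7 for LES. Cfap206, which anchors a radial spoke (chromosome 4, 34688574 to 34730263), was the most abundant CFAP gene in every library but those of LZ, where Cfap36 was. It had 12.2, 10.6 and 54.3 RPKM in LZ, 360, 311 and 351 in PD, and 466, 503 and 476 in RS. The EES values were 52.8, 314 and 76.2 RPKM and its LES libraries 66.7, 57.9 and 75.3. EES replicate 2 reached the range of PD, and the other elongating libraries lay near or above LZ replicate 3. Cfap206 rose in PD (4.15 ± 0.62, limma adjusted p = 5.29e-05) and fell in EES vs RS (−2.15 ± 0.62, limma adjusted p = 0.00648; −2.92 without LZ replicate 3 and EES replicate 2). Centring on library medians left −0.71, which did not pass.

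Cfap70, an axonemal protein near the outer dynein arm (chromosome 14, 20394190 to 20452264), had 2.00, 2.72 and 15.8 RPKM in LZ, 99.3, 98.4 and 110 in PD, 68.4, 81.0 and 81.8 in RS, 5.76, 21.4 and 8.21 in EES, and 8.45, 7.46 and 10.1 in LES. PD was above RS in every library, and the change of −0.42 ± 0.62 did not pass (limma adjusted p = 0.638). Its rise in PD, 4.53 ± 0.62 (limma adjusted p = 2.47e-05), was second to that of Cfap161. Cfap100 and Cfap73 encode partner subunits of a complex that regulates inner dynein arms, but their courses differed. Cfap73 rose in PD (4.37 ± 0.42) to 16.7 ± 1.77 RPKM and was at 27.3 ± 6.17 in RS and 2.20 ± 0.15 in LES.

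Cfap100 (chromosome 6, 90403731 to 90429768) had 0.481, 0.750 and 0.834 RPKM in LZ and 0.176, 0.442 and 0.625 in PD, then 5.44, 7.78 and 8.52 in RS. Its EES libraries had 2.54, 33.8 and 3.83 RPKM and its LES libraries 2.84, 2.84 and 3.04. It rose in RS vs PD (4.24 ± 0.74, limma adjusted p = 0.000361). Replicate 2 alone put its highest stage mean in EES, at 13.4 ± 17.7 RPKM. EES vs RS was −0.04 ± 0.74 (limma adjusted p = 0.962), −1.19 and a fall without LZ replicate 3 and EES replicate 2, but 1.40 with libraries centred on their medians and 1.12 with quantile normalization, both rises. Cfap43 and Cfap44, which tether an inner dynein arm, rose in PD by 3.58 ± 0.46 and 3.89 ± 0.54 to 58.8 ± 10.9 and 17.6 ± 2.79 RPKM and were at 18.4 ± 1.64 and 3.06 ± 0.34 in LES; the fall of Cfap43 in EES vs RS did not pass without RS replicate 3 or without EES replicate 1 or 3. Cfap57, an inner arm adaptor, was at 96.7 ± 5.92 RPKM in PD and 27.5 ± 2.48 in LES, and Cfap61, of a spoke-associated complex, at 9.55 ± 0.60 in RS and 2.55 ± 0.22 in LES.

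Among the cytoplasmic assembly and trafficking members, 3 of 4 rose in PD and 3 fell in EES vs RS. Of all tested genes 25.5% rose in the first of these steps and 54.9% fell in the second. Together the 4 members had 96.9 ± 45.2 RPKM for LZ, 398 ± 22.4 for PD, 436 ± 38.2 for RS, 77.4 ± 71.1 for EES and 46.0 ± 9.58 for LES. Cfap36, which binds the small GTPase ARL3 (chromosome 11, 29218918 to 29247317), led the group with 35.2, 28.2 and 64.5 RPKM in LZ, 189, 184 and 221 in PD, 212, 254 and 226 in RS, 3.23, 100 and 11.7 in EES, and 10.5, 7.40 and 17.6 in LES. The PD and RS libraries overlapped and all were above every other library. It rose in PD (2.30 ± 0.86, limma adjusted p = 0.0293), a call that was lost with quantile normalization, with scaling to reads in genes, with no filter, in the de novo gene table, and without any 1 of LZ replicates 1 and 2 and the PD replicates. Cfap298 and Cfap300 act in dynein arm assembly. Cfap298 rose in PD by 2.94 ± 0.44 to 135 ± 10.6 RPKM and was at 163 ± 22.4 in RS and 17.5 ± 2.28 in LES. Cfap300 had the smallest called rise (1.01 ± 0.29, limma adjusted p = 0.00759), from 30.9 ± 11.1 RPKM in LZ to 59.9 ± 8.75 in PD, and was at 38.1 ± 8.57 in RS; that rise did not pass without LZ replicate 1 or 2 or without PD replicate 1 or 2, nor with quantile normalization (0.04, limma adjusted p = 0.883), scaling to reads in genes (0.57), a pseudocount of 1 RPKM (0.98) or the de novo gene table (0.92).

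Cfap410, a basal body protein (chromosome 10, 77978530 to 77985438), had the smallest range of stage means of the 31, 0.88 on the log2 scale. Its libraries had 2.42, 2.44 and 4.48 RPKM in LZ, 6.77, 5.52 and 4.41 in PD, 3.50, 4.84 and 4.09 in RS, 3.40, 2.81 and 3.39 in EES, and 3.50, 3.51 and 3.36 in LES. Neighbouring stages overlapped except that EES lay below RS. PD vs LZ was 0.88 ± 0.26 (limma adjusted p = 0.00897), under the minimum fold change, and EES vs RS −0.36 ± 0.26 (limma adjusted p = 0.218). With libraries centred on their medians EES vs RS was 1.08, a rise.

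Another 5 members were placed in no role group. Cfap97 (chromosome 8, 46162095 to 46195590) was the most abundant of them, at 19.9, 15.3 and 41.2 RPKM in LZ, 166, 158 and 201 in PD, 181, 80.1 and 206 in RS, 5.31, 19.6 and 8.73 in EES, and 10.9, 7.60 and 15.6 in LES. RS replicate 2 was low, yet the PD and RS libraries were above all others. It rose in PD (2.90 ± 0.51, limma adjusted p = 0.000186) and fell in EES vs RS (−3.89 ± 0.51, limma adjusted p = 1.58e-05). Cfap157, of the basal body region in spermatids (chromosome 2, 32777413 to 32784405), had 3.73, 3.37 and 5.54 RPKM in LZ, 19.4, 18.9 and 26.4 in PD, 56.5, 83.7 and 69.6 in RS, 23.4, 65.7 and 27.5 in EES, and 25.0, 25.7 and 23.6 in LES. It rose in PD (2.37 ± 0.34) and again in RS (1.69 ± 0.34, limma adjusted p = 0.00111). The RS call was lost in the de novo gene table (0.77), where the gene matched to Cfap157 also covers exons of another coding gene. EES vs RS was −0.99 ± 0.34 (limma adjusted p = 0.0179), under the minimum fold change, and LES vs RS passed as a fall (−1.48 ± 0.34, limma adjusted p = 0.00141) except with median centring, which gave 0.06.

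Cfap58, needed for the sperm midpiece and axoneme, was split within EES, at 3.18, 91.3 and 7.82 RPKM, after 51.5, 51.7 and 84.5 in RS and 12.7, 12.5 and 18.3 in PD. EES replicate 2 was above every RS library. Its RS vs PD change of 2.09 ± 0.87 did not pass (limma adjusted p = 0.0673) but was called a rise with voom and without EES replicate 2. Its fall in EES vs RS (−2.21 ± 0.87) did not pass without any 1 RS replicate or without EES replicate 1 or 3, and its rise in PD (2.63 ± 0.87) not without LZ replicate 1 or 2 or PD replicate 3. Cfap99 and Cfap299 rose in PD by 4.12 ± 0.52 and 4.23 ± 0.71 and were at 4.12 ± 0.09 and 6.50 ± 2.10 RPKM in LES.

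The level left in late elongating spermatids differed widely between members. As a percent of the highest stage mean, the LES mean had a median of 11.6% over the 31 genes and of 13.2% over all tested genes. It was at least 50% for 3 members (9.68%), Cfap69 at 100%, Cfap126 at 97.2% and Cfap410 at 62.1%, and for 24.2% of all tested genes. Next came Cfap157 at 35.4%, Cfap43 at 29.3%, Cfap57 at 28.4% and Cfap61 at 26.6%. The lowest were Cfap52 at 3.36%, Cfap20 at 3.60%, Cfap45 at 3.79% and Cfap161 at 4.67%, and those 4 are all doublet proteins. These percentages hold for the deposited scaling, under which all genes had a median of −1.43 in LES vs RS. With each LES library alone Cfap52 was at 1.59% to 4.82%, Cfap20 at 1.78% to 5.09%, Cfap126 at 94.8% to 100% and Cfap69 at 97.2% to 100%. Cfap126 belongs to the same role group as the 4 lowest. The share of single genes in the summed CFAP level shifted with this. Cfap69, Cfap126 and Cfap206, chosen after their values were seen, together made up 13.4% ± 2.57 (LZ), 21.7% ± 1.59 (PD), 25.1% ± 0.68 (RS), 46.0% ± 7.76 (EES) and 47.8% ± 1.72 (LES) of the sum.

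**Figure D4:**
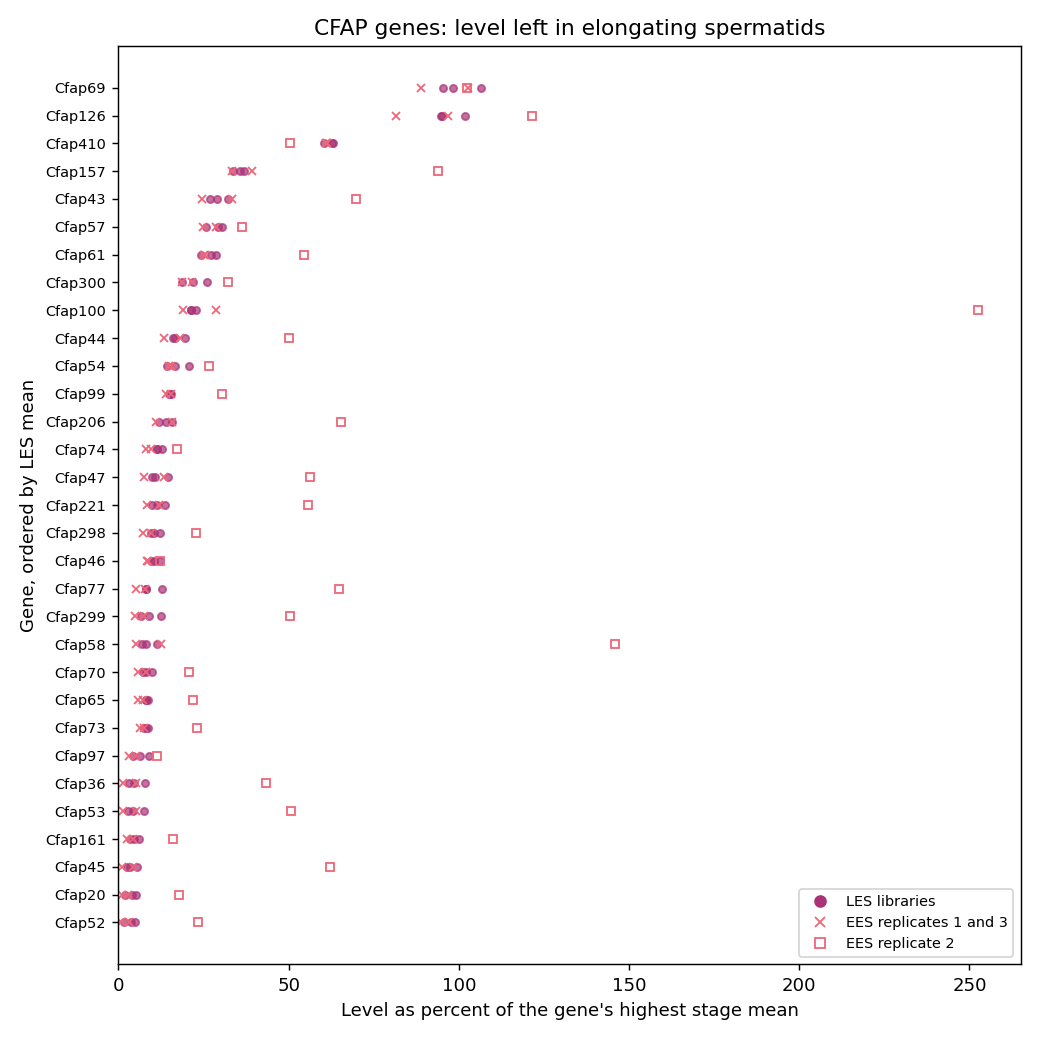
Level in each LES library (filled circles) and EES library (crosses for replicates 1 and 3, open squares for replicate 2) as a percent of the gene's highest stage mean, for the 31 CFAP genes ordered by their LES mean. Cfap69, Cfap126 and Cfap410 stand above 50% in LES, most others are under 30%, and the squares lie to the right of the crosses for most genes.

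In both single libraries Cfap206 was the most abundant CFAP gene. With 1 library each there was no replicate check. Genes above, inside or below a range were counted among the CFAP genes only. The matching shares of all tested genes were not counted, so these counts cannot show a trait of CFAP genes. In RS23 the summed CFAP level was 2622 RPKM, and 9 genes were above the range of the 3 RS libraries, 9 inside it and 13 below. Cfap100 was at 19.4 RPKM in RS23, 2.67 times the RS mean, and Cfap58 at 121, 1.94 times. Cfap126 was at 11.7 RPKM, 0.251 times the RS mean, and Cfap410 at 1.47, 0.354 times. In PrmES the sum was 709 RPKM, and 24 genes were above the range of the LES libraries, 2 inside it and 5 below. Cfap206 was at 256 RPKM, 3.84 times the LES mean, and Cfap69 at 113, 2.02 times. Cfap126 was again low, at 16.4 RPKM or 0.301 times the LES mean, with Cfap410 at 0.374 times and Cfap300 at 0.554 times. The round spermatid markers summed to 129 RPKM in PrmES, against 61.2 to 74.2 in LES. The 5 markers of elongating spermatids, Prm1, Prm2, Tnp1, Tnp2 and Odf1, summed to 75000 RPKM in PrmES, against 96400 to 106000 in LES. In PrmES they were at 0.183, 0.293, 1.45, 0.855 and 0.691 times their LES means in that order. The part of either set of markers in the CFAP values was not tested. These libraries also differ from the others in the stain used for sorting and in the name that opens their column headers in the deposited gene table. Neither difference can be told apart from age and reporter.

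**Figure D5:**
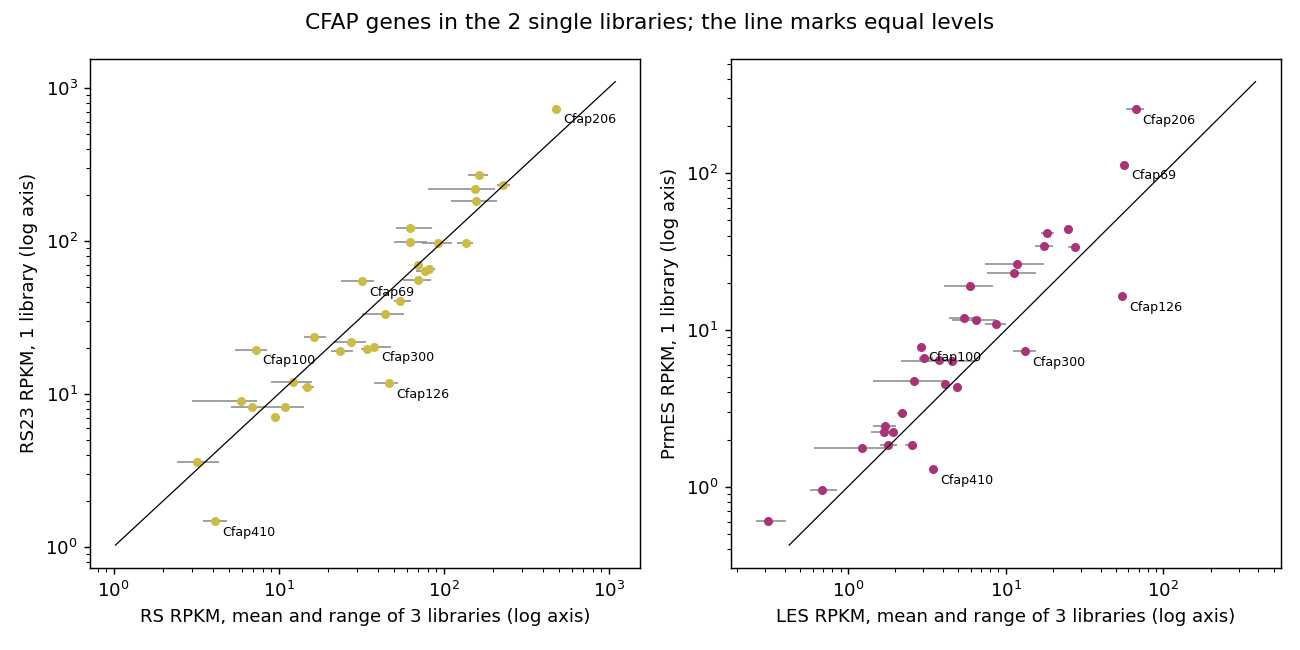
RPKM of the 31 CFAP genes in RS23 against the mean and range of the RS libraries (left) and in PrmES against those of the LES libraries (right), on log axes; the diagonal marks equal levels. Cfap126 and Cfap410 lie below the diagonal in both panels, and Cfap206 and Cfap69 lie above it.

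Other genes of the axoneme were counted from lists by function. In PD vs LZ, where rises made up 25.5% of all tested genes and falls 35.8%, 10 of 11 tested axonemal dynein heavy chains, the motor subunits, rose, led by Dnah6 (3.98 ± 0.51), with Dnah3 lowest at 0.06 ± 0.74. The dynein assembly factors had 12 rises of 13, from Dnaaf5 (0.62 ± 0.46, not passing) to Zmynd10 (4.50 ± 0.63). All 9 radial spoke genes and all 7 central pair genes rose, up to Rsph6a (4.61 ± 0.81) and Spag6l (4.61 ± 0.63). Of 10 genes of the nexin-dynein regulatory complex, which links the doublets, 8 rose, led by Drc1 (4.43 ± 0.68), and of 21 intraflagellar transport genes, which carry axonemal parts, 11 rose, led by Ift140 (3.66 ± 0.51). The median log2 fold changes of these 6 lists were 3.02, 2.93, 3.36, 3.49, 2.91 and 1.33, beside −0.36 for all tested genes. In EES vs RS the falls were 7 of 11, 12 of 13, 8 of 9, 5 of 7, 9 of 10 and 20 of 21 in the same order of lists, where 54.9% of all tested genes fell, with medians of −2.61, −2.90, −1.87, −2.03, −3.33 and −2.81 beside −1.42 for all genes. The largest falls were Dnah10 (−3.67 ± 0.59), Spag1 (−4.79 ± 0.59), Rsph6a (−3.76 ± 0.81), Spag6l (−3.78 ± 0.63), Iqca (−4.48 ± 0.86) and Ttc30b (−4.79 ± 0.65). The median LES level as a percent of the highest stage was 9.85%, 8.20%, 18.1%, 19.7%, 7.31% and 13.0% in that order. Dnah7a, Hydin, Spag17 and Ift172 were the members of these lists at or above 50%, where 24.2% of all tested genes were.

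The outer dense fibre and fibrous sheath genes encode the structures that surround the axoneme in sperm. Of the 11 tested, PD vs LZ called 3 higher and 6 lower, RS vs PD called 8 higher, and EES vs RS called 7 higher and 1 lower, where their median was 1.78. Among all tested genes 25.5% rose and 35.8% fell in the first of these steps, 23.4% rose in the second, and 15.8% rose and 54.9% fell in the last. Odf4 had the largest rise in PD (3.54 ± 0.49), Akap3 in RS (4.75 ± 0.35) and Akap4 in EES (4.88 ± 0.42), and Fsip1 fell in EES (−2.30 ± 0.66). Their median LES level was 97.2% of the highest stage, and 8 of 11 were at or above 50%, a level reached by 24.2% of all tested genes. Of 9 transcription factors linked to ciliary genes, PD vs LZ called 3 higher and 3 lower, beside the 25.5% and 35.8% above. RS vs PD called 4 higher and 1 lower, where 23.4% and 15.2% of all tested genes were, and EES vs RS 1 higher and 4 lower. Rfx4 had their largest rise in PD (3.01 ± 0.73) and Taf7l their largest fall there (−8.02 ± 0.81). Foxj1, the master regulator of motile cilia, had their largest rise in RS vs PD (5.85 ± 0.70) and largest fall in EES vs RS (−3.30 ± 0.70). Whether these factors act on the CFAP genes was not tested.

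Some member exons are shared with other genes, which matters because the strand setting of the counting was not stated. In GENCODE M21, 12 of the 31 have another gene over part of their exons, 10 of them on the opposite strand, and among them were Cfap298 (44.2% of exon bases, with Gm49727 on the opposite strand) and Cfap299 (19.1%, with E030032P16Rik on the same strand). Values of these 2 genes are uncertain to that extent. In the deposited de novo annotation 19 assembled genes lie on the opposite strand over exons of 17 members. An assembled gene over 130 exon bases of Cfap52 was at 23.1 RPKM in EES and 26.5 in LES, where Cfap52 was at 12.3 ± 17.1 and 4.59 ± 2.24. Another, over 332 exon bases of Cfap69, had 12.9 RPKM (RS), 22.9 (EES) and 18.4 (LES), below Cfap69 at each stage. The part of this opposite-strand locus in the level of Cfap69 was not tested. Members were assembled with 1 to 11 transcripts each, with a median of 3. The de novo genes matched to 3 members also cover exons of another coding gene.

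A gene on the opposite strand starts within 1 kb upstream of the outermost GENCODE start of 5 members. Opposite-strand starts inside a member were not counted. Their levels did not run in parallel in every pair. Stx8, which starts 542 bases from Cfap52, was at 9.29 ± 1.3 RPKM in PD and 15 ± 1.09 in LES, while Cfap52 went from 93.7 ± 2.53 to 4.59 ± 2.24. Zfyve28, which starts 151 bases from Cfap99, had 0.448 ± 0.091 RPKM in LZ and 0.0370 ± 0.0144 in PD, while Cfap99 went from 2.20 ± 2.29 to 27.3 ± 3.57. Ebna1bp2, which starts 22 bases from Cfap57, had 17.6 ± 2.93 RPKM in LZ and 22.6 ± 1.38 in PD, while Cfap57 went from 9.34 ± 6.84 to 96.7 ± 5.92. Crnkl1 beside Cfap61 was at 13.0 ± 3.55 and 14.1 ± 0.12 RPKM in LZ and PD, and Snx25 beside Cfap97 at 17.9 ± 3.33 and 39.2 ± 1.52; the differences within pairs were not tested.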

How the data were processed

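RNA-seq of 17 libraries was used as deposited. The authors deposited log2 values per gene, found from the values to be log2 of 100 times RPKM plus 1, a pseudocount of 0.01 RPKM; levels are printed without it. The submitters' processing notes name Trim Galore, STAR and the builds GRCm38 and mm10; which tool counted reads, and on which strand, was not stated. The deposited de novo annotation holds positions of exons (unit other), from StringTie 1.3.4d, per the file headers. Values multiplied by exon length fell on whole reads, within 0.01 read, for 99.99% of genes with reads, which gave library totals.

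Genes at 1 RPKM or more in at least 3 of 15 libraries (13260) were fitted in limma 3.58.1 (R 4.3.3) with eBayes and its trend, with stage as the only term, on the deposited log2 scale, which understates changes of low genes. Calls required log2 fold changes of 1 or more in size, at Benjamini-Hochberg adjusted p under 0.05 across tested genes. The fit was also run on simulated reads with known fold changes and the same dispersion for every gene. The simulation held no shift of all genes between stages and no outlying library, so it cannot show how the calls behave under either. RS23 and PrmES entered no test. Exon lengths equalled those of GENCODE M21 for 29 of 31 members (not Cfap45 and Cfap47).

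Members were taken by symbol alone, but that rule, the role groups and the gene lists were set with earlier results of these data known. Per-library values are given for the 3 largest called rises and falls in each neighbouring comparison, the 4 highest and 4 lowest LES percentages among members reaching 5 RPKM, and the highest member of each role group; Cfap58 was added after its values were seen. Alternatives were other scalings (quantile normalization, median centring, reads in genes), a pseudocount of 1 RPKM, no filter or 5 RPKM, voom on the recovered reads, a replicate block, no minimum fold change, the 2 stages alone, the de novo gene table, and leaving out libraries. One overlap between a member and another gene is not reported here.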

Additional observations from a re-analysis of the deposited data

How the results depend on the processing

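Counts of CFAP genes kept within 1.5 times their main value under most settings. With the filter at 5 RPKM, PD vs LZ had 0 falls, RS vs PD 3 rises and LES vs PD 3 rises. The calls lost were of Cfap47 and Cfap77, which were not tested there. Nor was Cfap410, so that 28 members were tested. Without LZ replicate 3 and EES replicate 2, PD vs LZ had 2 falls. EES vs RS had 1 rise with quantile normalization, 4 rises and 15 falls with median centring, and 1 rise with no minimum fold change; LES vs RS had 2, 3 and 1 rises under these 3 settings. LES vs PD had 3 rises with scaling to reads in genes and with a pseudocount of 1 RPKM. Leaving out each library in turn gave 3 to 5 rises in LES vs PD, the 3 being without LES replicate 3; 23 to 27 rises in PD vs LZ; and 24 to 28 falls in EES vs RS. The cause of these moves was not tested, apart from the smaller number of genes tested at 5 RPKM.

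Directions turned for single genes under scaling. With median centring EES vs RS was 0.10 for Cfap43, 1.4 for Cfap100, 0.03 for Cfap300 and 1.08 for Cfap410, and LES vs RS was 0.06 for Cfap157, 0.03 for Cfap300 and 1.3 for Cfap410. With quantile normalization EES vs RS was 1.12 for Cfap100 and LES vs RS 1.18 for Cfap410. These are not all: counting uncalled values, EES vs RS turned for 5 members with median centring and 2 with quantile normalization, LES vs EES for 2 and 6, RS vs PD for 4 and 2, LES vs RS for 4 and 2, LES vs PD for 2 and 2, and PD vs LZ for 0 and 2 (Cfap77 and Cfap100), while reads in genes turned 1, Cfap299 in RS vs PD. The member median in LES vs EES was 0.21 without LZ replicate 3 and EES replicate 2, and it ranged from −0.72 to 0.21 over the libraries left out in turn, the highest being without EES replicate 2.

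Libraries with the same replicate number did not deviate together: of 30 correlations of deviations 4 exceeded 0.1, between −0.25 and 0.24, and 6 of 15 libraries correlated best with their own number. A replicate block in the model, which assumes pairing by number, gave 26 rises and 1 fall in PD vs LZ, 5 rises in RS vs PD, 26 falls in EES vs RS, 27 falls in LES vs RS, 5 rises and 22 falls in LES vs PD, and 30 members differing among stages. Low members rest on few reads, down to 16 for Cfap77 in a PD library, so their changes are less precise.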
